A study of Mus musculus with 12 samples.

Results

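The genes described here are 8 interferon regulatory factors, Irf1, Irf2, Irf3, Irf4, Irf5, Irf7, Irf8 and Irf9, measured by RNA sequencing in 12 mouse tumours. They were taken by gene symbol from the deposited table of 18433 genes, because the study links Irf7 to DSF and to PD-L1. All 8 passed the filter on low counts, which kept 14144 genes. The tumours grew from 4T1 cells, a mammary carcinoma line from a BALB/c mouse, placed under the skin of the right flank of BALB/c mice. Bearers of tumours were randomised into arms of 5 mice, and 3 libraries of each arm were sequenced.

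The 4 groups share strain, cell line and site, and no group carries an engineered allele. Control tumours are labelled with no treatment. The DSF group was given DSF by mouth, the anti-PD-1 group was given a PD-1-blocking antibody into the peritoneum, and the combination group was given both. DSF usually stands for disulfiram, an inhibitor of aldehyde dehydrogenase, and anti-PD-1 frees T cells from the inhibitory ligand PD-L1, encoded by Cd274. Doses, times and the age and sex of the mice are not given in the sources used here. The libraries are whole tumours, so each value sums over tumour cells and every host cell present.

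Interferon regulatory factors are DNA-binding proteins that switch on interferon genes and the genes that interferons induce. IRF3, IRF5 and IRF7 are activated by kinases downstream of sensors of foreign nucleic acid and drive transcription of type I interferon genes, while IRF9 is the DNA-binding subunit of ISGF3, the complex that carries the signal of type I interferon receptors to the nucleus. IRF1 is induced by interferon gamma and activates genes of antigen presentation, IRF2 competes with it for the same sites, and IRF4 and IRF8 are best known from lymphocytes, dendritic cells and macrophages. Irf7 is itself an interferon-induced gene, which makes it part of a positive feedback loop.

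Promoters of these genes are shown because interferon signals reach their target genes through known motifs. The sequences are from RefSeq, build GRCm38.p6, and each covers the 250 bases before an annotated start. The windows are chr7:141266425-141266674 on the minus strand for Irf7, chr11:53769764-53770013 on the plus strand for Irf1, chr8:120736108-120736357 on the plus strand for Irf8 and chr8:46739495-46739744 on the plus strand for Irf2. Capitals mark matches to an interferon-stimulated response element (GAAA repeated with 2 bases between, in Irf2 only) and TTCNNNGAA (a gamma-activated site, the motif of the interferon gamma response), searched on both strands. In Irf7, where neither motif matched, capitals mark the CpG dinucleotides, the sites of DNA methylation.
Irf7: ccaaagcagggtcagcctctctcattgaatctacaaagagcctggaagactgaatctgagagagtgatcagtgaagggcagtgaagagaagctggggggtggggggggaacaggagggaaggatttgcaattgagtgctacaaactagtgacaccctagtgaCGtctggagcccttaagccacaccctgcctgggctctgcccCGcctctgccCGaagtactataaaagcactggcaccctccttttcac
Irf1: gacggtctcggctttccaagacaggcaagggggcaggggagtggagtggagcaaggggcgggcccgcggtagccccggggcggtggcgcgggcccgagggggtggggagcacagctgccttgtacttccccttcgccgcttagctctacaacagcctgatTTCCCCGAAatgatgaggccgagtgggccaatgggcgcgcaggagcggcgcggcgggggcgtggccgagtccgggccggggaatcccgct
Irf8: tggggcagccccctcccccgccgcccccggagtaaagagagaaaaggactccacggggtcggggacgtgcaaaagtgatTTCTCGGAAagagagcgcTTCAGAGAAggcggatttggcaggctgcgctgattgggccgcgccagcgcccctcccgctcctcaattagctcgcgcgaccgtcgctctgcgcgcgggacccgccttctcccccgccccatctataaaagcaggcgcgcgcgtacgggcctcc
Irf2: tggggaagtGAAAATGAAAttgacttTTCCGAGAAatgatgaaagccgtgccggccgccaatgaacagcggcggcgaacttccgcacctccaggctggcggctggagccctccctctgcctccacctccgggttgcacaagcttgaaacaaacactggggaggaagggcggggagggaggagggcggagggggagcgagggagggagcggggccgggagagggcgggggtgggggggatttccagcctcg

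The gamma-activated motif started at position -90 in Irf1, at -171 and -153 in Irf8 and at -224 in Irf2, counted from the annotated start. The interferon-stimulated motif started at -241 in Irf2, and the matches in Irf2 did not overlap. Of the 11 windows of the 8 genes, 3 held a gamma-activated motif and 1 held an interferon-stimulated motif. Over all 32851 windows of this length the shares were 7.02% and 2.98%. No match was found in the windows of Irf3, Irf4, Irf5, Irf7 and Irf9, which says only that these letters are not in the 250 bases searched. The Irf7 window held 3 CpG dinucleotides and the first Irf1 window 25, against a median of 6 over all windows. DNA methylation and factor binding were not measured in these tumours.

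Total counts per library ranged from 13323171 to 16809705, and the fit gave a coefficient of biological variation of 0.277. The tumour label was checked against 11 epithelial markers. Krt8 and Krt18, keratins of simple epithelium, were at medians of 366 and 454 FPKM (fragments per transcript length and library size), while Epcam ranged from 0.73 to 23.4 FPKM and Cldn7 was at 0 in at least 1 library. Some libraries stood apart in the transcripts of surrounding tissue. The 14 adipocyte markers took 0.817% of counts in DSF replicate 2 (95% Wilson interval 0.813 to 0.821, counting error only), against 0.0147% to 0.0631% in the other 11 libraries. The 18 skin markers took 0.13% to 0.405% in the combination tumours, against 0.0142% to 0.136% in the other 9. Results are therefore also given with these marker scores in the fit, or without DSF replicate 2 and combination replicate 2.

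Per length, Irf1 was the most abundant of the 8 transcripts and Irf4 the least. On the FPKM scale the median level over 12 libraries was 152 for Irf1 (range 65.4 to 181), 58.9 for Irf7 (26.5 to 90.9) and 55.1 for Irf8 (36.4 to 68.5). Irf9 followed at 33.4 FPKM (24.7 to 42.1), Irf5 at 31.4 (16.3 to 43.5), Irf3 at 29.3 (27.8 to 38.1) and Irf2 at 28.1 (23.9 to 30.9). Irf4 was at a median of 0.86 FPKM (0.29 to 1.91). The range of Irf1 overlapped that of its neighbour Irf7 because of DSF replicate 2 alone, at 65.4 FPKM against 108 and 119 in the other DSF tumours, the ranges of Irf7 and Irf8 overlapped, and so did those of Irf9, Irf5, Irf3 and Irf2. Irf4 lay below all others.

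The genes differed in how far they spread. The highest library of Irf4 was 6.59 times the lowest, on the FPKM scale, and the ratio was 3.43 for Irf7, 2.76 for Irf1, 2.67 for Irf5, 1.88 for Irf8 and 1.71 for Irf9. For Irf3 it was 1.37 and for Irf2 1.29. Irf4 had the fewest counts behind it, so its ratio carries the most counting error.

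**Figure D1:**
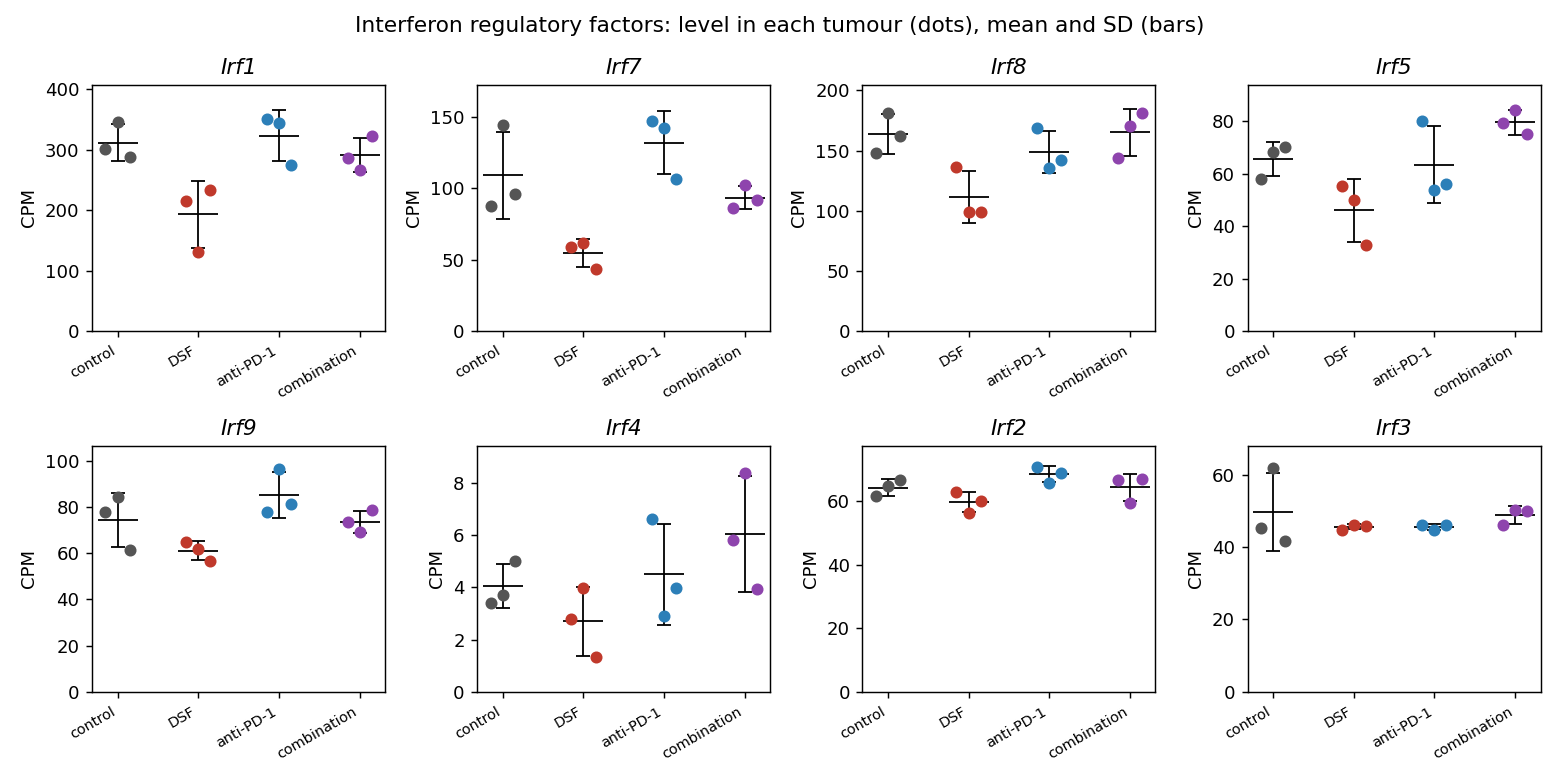
Level of each interferon regulatory factor in CPM (counts scaled to library size by TMM) by treatment group. Each dot is 1 tumour library, the long bar is the group mean and the whiskers are 1 SD (n = 3); every vertical axis starts at 0. Irf7 in the 3 DSF tumours, at 43.4 to 61.7 CPM, lies below all other libraries, while Irf2 and Irf3 lie in narrow bands.

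Irf7, which amplifies interferon production, was lowest in tumours given DSF alone. Its level, in counts scaled to library size (CPM), was 58.9, 61.7 and 43.4 in the DSF tumours and 87.3, 144 and 95.7 CPM in the control tumours. In anti-PD-1 tumours it was 147, 142 and 106 CPM, and in combination tumours 86.4, 102 and 91.6 CPM. All 3 DSF values lay below all 9 other values, and the combination values lay below all 3 anti-PD-1 values but inside or next to the control range. The group means were 54.6 ± 9.84 CPM for DSF, 109 ± 30.6 for control, 132 ± 22.1 for anti-PD-1 and 93.3 ± 7.86 for the combination (SD, n = 3 each).

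None of the tests of Irf7 passed an adjusted p of 0.05 in edgeR's quasi-likelihood test with Benjamini-Hochberg adjustment over 14144 genes. The log2 fold change of DSF against anti-PD-1 was -1.27 ± 0.20 (SE, adjusted p = 0.0613), which ranked Irf7 14th of all genes by p in that comparison. DSF against control gave -0.995 ± 0.20 (adjusted p = 0.187, unadjusted p = 0.00045), and the combination against DSF gave 0.77 ± 0.20 (adjusted p = 0.0695). The combination against anti-PD-1 gave -0.50 ± 0.20 (adjusted p = 0.446), and anti-PD-1 against control 0.27 ± 0.20 (adjusted p = 0.999). These comparisons share groups with one another and are not independent.

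Pooling the arms gave Irf7 a value of opposite sign for each treatment. Across both arms given DSF, with and without anti-PD-1, the main effect on Irf7 was -0.75 ± 0.14 on the log2 scale (edgeR, adjusted p = 0.221). Across both arms given anti-PD-1 it was 0.52 ± 0.14 (adjusted p = 0.195). The difference between the DSF effect with and without anti-PD-1, the interaction, was 0.50 ± 0.28 (adjusted p = 0.513), and 0.21 without control replicate 2. Other tools made calls that edgeR did not: DESeq2 called Irf7 in DSF against control (adjusted p = 0.00153) and in the DSF and anti-PD-1 main effects (adjusted p = 0.000599 and 0.0346). Both DESeq2 and limma called it in DSF against anti-PD-1 (adjusted p = 4.16e-06 and 0.0389) and in the combination against DSF (adjusted p = 0.00896 and 0.0484). Without control replicate 2, edgeR called it in DSF against anti-PD-1 as well.

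The mix of Irf7 transcripts was similar in the 4 groups. Of the 4 Irf7 transcripts in the deposited transcript table, the main one took 59.8% ± 2.4 of the gene's counts in control tumours, 57.3% ± 4.45 in DSF, 55% ± 2.22 in anti-PD-1 and 59.1% ± 3.27 in the combination (SD, n = 3 each). The second took 28.6% on average over 12 libraries, between 23.7% and 36.1%. These shares are estimates by the authors' quantification and were not tested.

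Irf3, which starts the interferon response and is regulated mainly through its protein, had group means between 45.6 and 49.6 CPM. It was at 45.3, 61.9 and 41.7 CPM in control, 44.8, 46.1 and 46.0 in DSF, 46.2, 44.7 and 46.0 in anti-PD-1 and 46.1, 50.3 and 50.1 in combination tumours. Control replicate 2 was the highest library, and the other 11 lay within a narrow band. DSF against control gave a log2 fold change of -0.12 ± 0.13 (edgeR, adjusted p = 0.785), and leaving out control replicate 2 turned it to 0.09.

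Irf5, which acts downstream of Toll-like receptors in macrophages and dendritic cells, was lower in DSF than in the control and combination tumours. Its level was 55.4, 49.9 and 32.6 CPM in DSF, 58.1, 68.4 and 70.4 in control, 80.2, 53.9 and 56.0 in anti-PD-1 and 79.4, 84.3 and 75.0 in the combination. The DSF values lay below all control and all combination values but overlapped the anti-PD-1 values, and the combination values lay above all control values. For the combination against DSF the log2 fold change was 0.79 ± 0.20 (edgeR, adjusted p = 0.0632), and DESeq2 and limma called it there (adjusted p = 0.00649 and 0.0440). DSF against control gave -0.51 ± 0.20 by edgeR (adjusted p = 0.417), or -0.29 without DSF replicate 3, and the interaction 0.84 ± 0.28 (adjusted p = 0.295, unadjusted p = 0.0114). Without anti-PD-1 replicate 1, edgeR called Irf5 in the combination against DSF. Irf5 overlaps Tnpo3 in the RefSeq annotation and the strandedness of the libraries is not given in the sources used here, so reads of both genes may have been counted together.

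Irf9, the DNA-binding subunit of ISGF3, ranged from 56.5 to 96.6 CPM over the 12 libraries. It was at 64.7, 61.7 and 56.5 CPM in DSF, 77.7, 84.2 and 61.3 in control, 77.9, 96.6 and 81.3 in anti-PD-1 and 73.3, 69.1 and 78.6 in combination tumours. The DSF values lay below all anti-PD-1 and all combination values, and control replicate 3 fell among them. Against anti-PD-1, DSF had a log2 fold change of -0.48 ± 0.13 (edgeR, adjusted p = 0.32), and DSF against control gave -0.29 ± 0.13 (adjusted p = 0.464), or -0.17 without control replicate 2.

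Irf1, the activator of interferon gamma targets, was lowest in DSF tumours. It was at 215, 130 and 234 CPM in DSF, 300, 346 and 288 in control, 350, 344 and 275 in anti-PD-1 and 287, 266 and 322 in combination tumours. All DSF values lay below the 9 others, with DSF replicate 2 the lowest, and the ranges of the other 3 groups overlapped. DSF against control gave a log2 fold change of -0.69 ± 0.19 (edgeR, adjusted p = 0.272), and -0.47 without DSF replicate 2 and combination replicate 2. The combination against DSF gave 0.59 ± 0.19 (adjusted p = 0.123), or 0.37 without DSF replicate 2, and DESeq2 called Irf1 in both comparisons (adjusted p = 0.0301 and 0.0354).

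Irf2, known as a competitor of IRF1, varied least of the 8 genes. It was at 63.0, 56.5 and 60.0 CPM in DSF, 61.6, 64.8 and 66.8 in control, 70.9, 65.9 and 68.9 in anti-PD-1 and 66.7, 59.4 and 67.2 in combination tumours. The groups overlapped except that DSF lay below anti-PD-1. The log2 fold change there was -0.20 ± 0.08 (edgeR, adjusted p = 0.61), and it was 0.00 for the combination against control. Irf2 overlaps the non-coding genes Gm31172 and Gm39170 in the RefSeq annotation.

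Irf8, a factor of macrophages and type 1 dendritic cells, was lower in DSF than in control tumours. Its level was 136, 99.0 and 98.6 CPM in DSF, 148, 181 and 162 in control, 169, 135 and 142 in anti-PD-1 and 144, 171 and 181 in the combination. The DSF values lay below all control and all combination values, while DSF replicate 1 just overlapped the anti-PD-1 group. The log2 fold change of DSF against control was -0.56 ± 0.15 (edgeR, adjusted p = 0.248), and of the combination against DSF 0.57 ± 0.15 (adjusted p = 0.0695). DESeq2 called Irf8 in both comparisons (adjusted p = 0.0411 and 0.0116), and limma in the second (adjusted p = 0.0462). The interaction was 0.71 ± 0.21 (adjusted p = 0.272, unadjusted p = 0.00627), the smallest interaction p among the 8 genes.

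Irf4, a factor of lymphocytes and of some myeloid cells, was present at a low level. It was at 2.77, 4.00 and 1.32 CPM in DSF, 3.41, 3.72 and 5.00 in control, 6.64, 2.90 and 3.97 in anti-PD-1 and 5.84, 8.39 and 3.93 in combination tumours. All 4 groups overlapped. For the combination against DSF the log2 fold change was 1.16 ± 0.45 (edgeR, adjusted p = 0.191), with the widest error of the 8 genes.

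**Figure D2:**
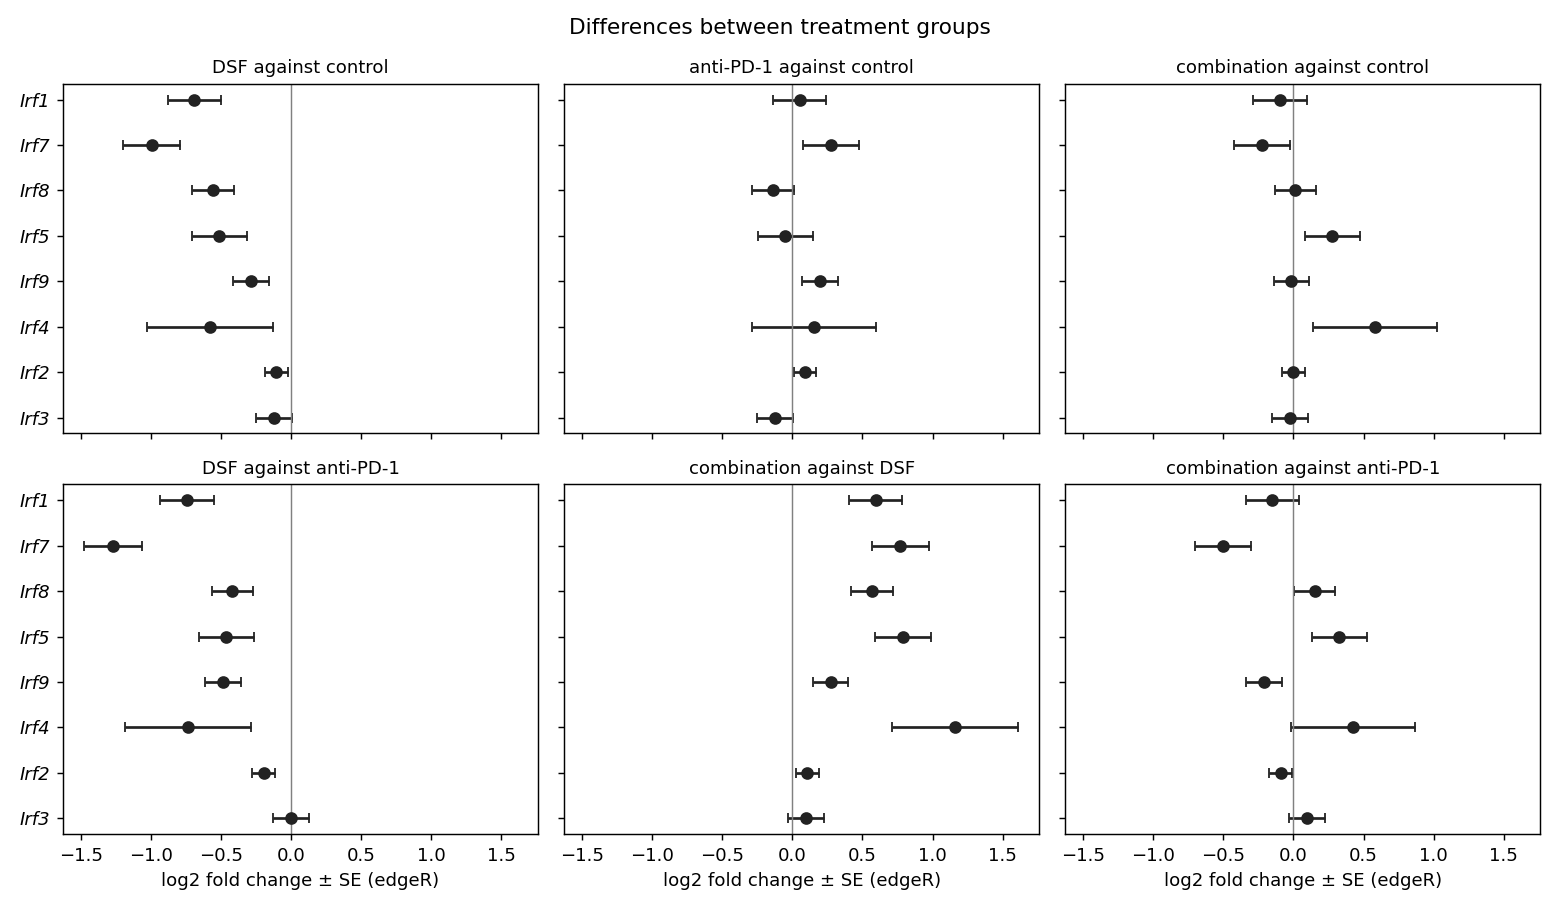
Log2 fold change of each factor in the 6 pairwise comparisons of the 4 groups, with its standard error, from the edgeR fit to all 12 libraries. Values left of 0 are lower in the group named first; in DSF against control and DSF against anti-PD-1 no point lies right of 0 by more than its error, and in the combination against DSF all points lie right of it.

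The fitted levels of the 8 factors were lower in DSF than in each other group, to unequal degrees, with Irf3 at the same level in DSF and anti-PD-1. In DSF against control, edgeR called 0 of 8 (0% of all 14144 genes were called). An unadjusted p under 0.05 was found for 5 of 8 (10.6% of all genes). DESeq2 called 3 of 8 (1.51% of all genes) and limma 0 (0%). All 8 log2 fold changes were negative (44.4% of all genes), with a median of -0.53 against 0.03 over all genes. The DSF values lay below all control values for Irf1, Irf5, Irf7 and Irf8, 4 of 8, and for 6.41% of all genes.

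In the combination against DSF, edgeR called 0 of 8 factors and 1.86% of all genes, and 5 of 8 had an unadjusted p under 0.05 (18.9%). DESeq2 called 4 of 8 (8.27% of all genes) and limma 3 (3.05%). All 8 values were positive (53.8% of all genes were negative), with a median of 0.58 against -0.02 over all genes, and 5 of 8 did not overlap, Irf9 being the one added to the 4 above (12.3% of all genes were higher without overlap). In DSF against anti-PD-1, edgeR called 0 of 8 and 0.0707% of all genes, and 6 of 8 had an unadjusted p under 0.05 (7.94%). DESeq2 called 2 of 8 (1.03% of all genes) and limma 1 (0.134%). All 8 values were negative there (44.9% of all genes), with a median of -0.47 against 0.02, but with DESeq2 size factors Irf3 was at 0.00783. Irf1, Irf2, Irf7 and Irf9 did not overlap and were lower in DSF, as were 5.23% of all genes.

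The factors differed less between anti-PD-1 and control, and between the combination and either control or anti-PD-1. In anti-PD-1 against control edgeR, DESeq2 and limma each called 0 of 8 and 0% of all genes. None of the 8 had an unadjusted p under 0.05 (1.73% of all genes) or groups that did not overlap (5.68% of all genes). Between the combination and control the 3 tools also called 0 of 8 (1.77% of all genes by DESeq2, 0% by edgeR and limma). None had an unadjusted p under 0.05 (11.2% of all genes), and the combination lay above control without overlap for Irf5 alone (11.5%). Between the combination and anti-PD-1 the 3 tools called 0 of 8 (0.46% of all genes by DESeq2, 0% by edgeR and limma). Only 1 had an unadjusted p under 0.05 (10.3% of all genes). That gene, Irf7, was also the one without overlap (10.1% of all genes were lower without overlap). For the interaction the 3 tools called 0 of 8 (1.57% of all genes by DESeq2, 0% by edgeR and limma). There 2 had an unadjusted p under 0.05, Irf5 and Irf8 (12.4% of all genes). All 8 interaction values were positive, with a median of 0.52 against -0.02 over all genes. For any difference among the 4 groups edgeR and limma called 0 of 8 (0% of all genes by each) and DESeq2 3 (6.15%). By edgeR 5 had an unadjusted p under 0.05 (13.2% of all genes). For the DSF main effect edgeR and limma called 0 (0% of all genes by each) and DESeq2 1 (0.467%). By edgeR 3 had an unadjusted p under 0.05 (8.15% of all genes). All 8 DSF main effects were negative, with a median of -0.15 against 0.02 over all genes. For the anti-PD-1 main effect the calls were also 0, 0 and 1 (0%, 0% and 2.27% of all genes). By edgeR 4 had an unadjusted p under 0.05 (10.1% of all genes). There 7 of 8 were positive, with a median of 0.28 against -0.01 over all genes.

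**Figure D3:**
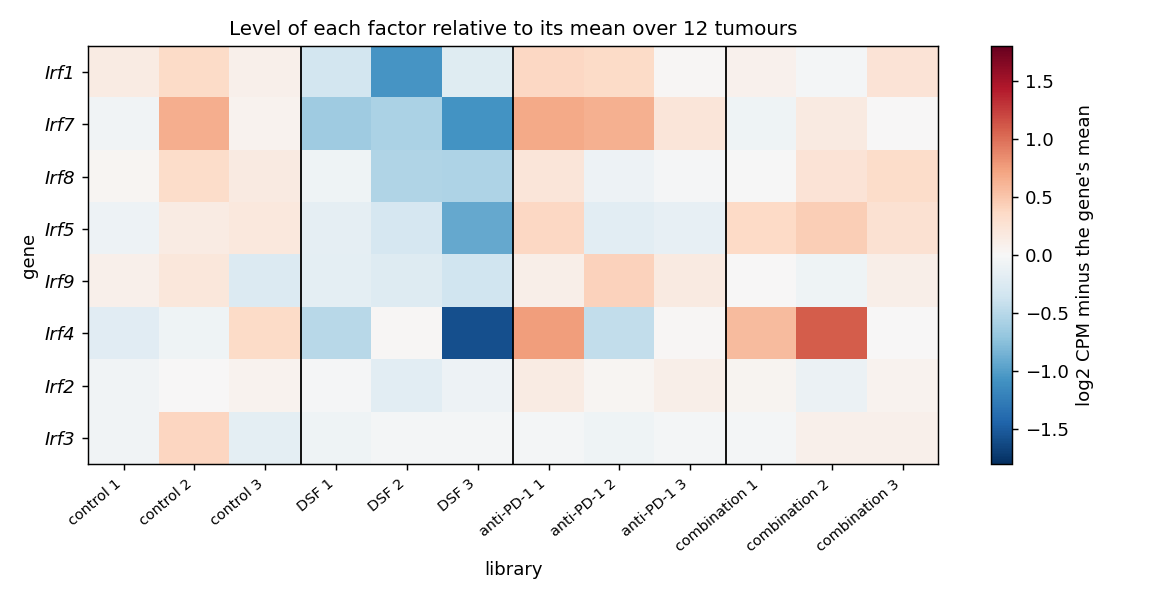
Level of each factor in each of the 12 libraries as log2 CPM minus the mean of that gene over all libraries, with libraries grouped by treatment and colour from blue (low) to red (high). The DSF columns hold most of the low values for Irf1, Irf7, Irf8 and Irf5, and the row of Irf4 has the widest spread.

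The marker lists of leukocytes did not all go the same way across these groups. In bulk tumour RNA, fewer cells of a type and less RNA per cell cannot be told apart. The 15 pan-leukocyte markers, none of them at 0 in any library, took 0.13% to 0.177% of counts in DSF tumours, 0.193% to 0.228% in control, 0.16% to 0.236% in anti-PD-1 and 0.227% to 0.237% in the combination. The DSF range lay below the control and combination ranges. The 8 markers of type 1 dendritic cells took 0.00702% to 0.00803% in DSF and 0.00956% to 0.0125% in control tumours. Gene by gene, all 8 were negative in DSF against control (44.4% of all genes), with a median log2 fold change of -0.43. Only 1 had an unadjusted p under 0.05 (10.6% of all genes), and 1 did not overlap (6.41% were lower without overlap). Per length Tlr3 was the highest of the 8 (median 11.2 FPKM), and it is also listed among the sensors. The 14 T cell markers took 0.00546% to 0.00722% in DSF and 0.00863% to 0.0108% in control tumours. The 12 macrophage markers overlapped, at 0.139% to 0.281% in DSF and 0.167% to 0.335% in control, with a median log2 fold change of -0.52. For 7 markers of other conventional dendritic cells that median was 0.14, and their shares overlapped too. In the combination against DSF all 14 T cell markers had positive values with an unadjusted p under 0.05. Over all genes 18.9% had such a p, in either direction. The median log2 fold change of the 14 was 1.00, and edgeR called none. The 8 markers of plasmacytoid dendritic cells, known for high IRF7, took 0.023% to 0.0289% of counts in DSF and 0.0221% to 0.029% in control tumours. Per length, Tcf4, Ly6d and Runx2 were the highest, at medians of 27.5, 19.3 and 12.2 FPKM, against at most 5.43 for the other 5. FPKM does not give the part of each gene in the summed counts. Ly6d varied most in FPKM over the 12 libraries, from 2.38 to 111. Gene by gene, the median log2 fold change of the 8 was -1.43 in DSF against control. There 4 were lower with an unadjusted p under 0.05 (10.6% of all genes had such a p, in either direction). In the combination against DSF the median was 1.95, with 6 of 8 positive, and edgeR called 1 of the 8 higher (1.6% of all genes).

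Neutrophil markers had median differences of the opposite sign. The 12 listed took 0.0682% to 0.0997% of counts in DSF, 0.0291% to 0.0911% in control and 0.0224% to 0.0319% in combination tumours. In DSF against control 9 of 12 were positive, with a median log2 fold change of 0.53 and none called. In the combination against DSF all 12 were negative (53.8% of all genes), with a median of -2.05, and edgeR called 4 of them lower. Over all genes 1.86% were called there in either direction, of which most were higher (1.6% of all genes).

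Adding the leukocyte score to the edgeR fit changed the values of the genes by unequal amounts. In DSF against control the log2 fold change of Irf5 went from -0.51 to -0.05 and that of Irf4 from -0.58 to 0.34, while Irf8 went from -0.56 to -0.36. Irf7 went from -0.995 to -0.77 and Irf1 from -0.69 to -0.90. With the skin and adipocyte scores instead, Irf7 was at -1.01 and Irf1 at -0.69, and Irf8 and Irf5 were at -0.34 and -0.30. The skin and adipocyte scores took, in the combination against DSF, Irf8 from 0.57 to 0.01, Irf5 from 0.79 to 0.12 and Irf4 from 1.16 to -0.10, while Irf7 went from 0.77 to 0.67 and Irf1 from 0.59 to 0.67. None of these values was called, and the part of other cell types in the differences was not tested. By share of counts, the leukocyte markers did not overlap between DSF and control, nor the skin markers between DSF and the combination. Treatment and score therefore cannot be told apart in these fits.

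**Figure D4:**
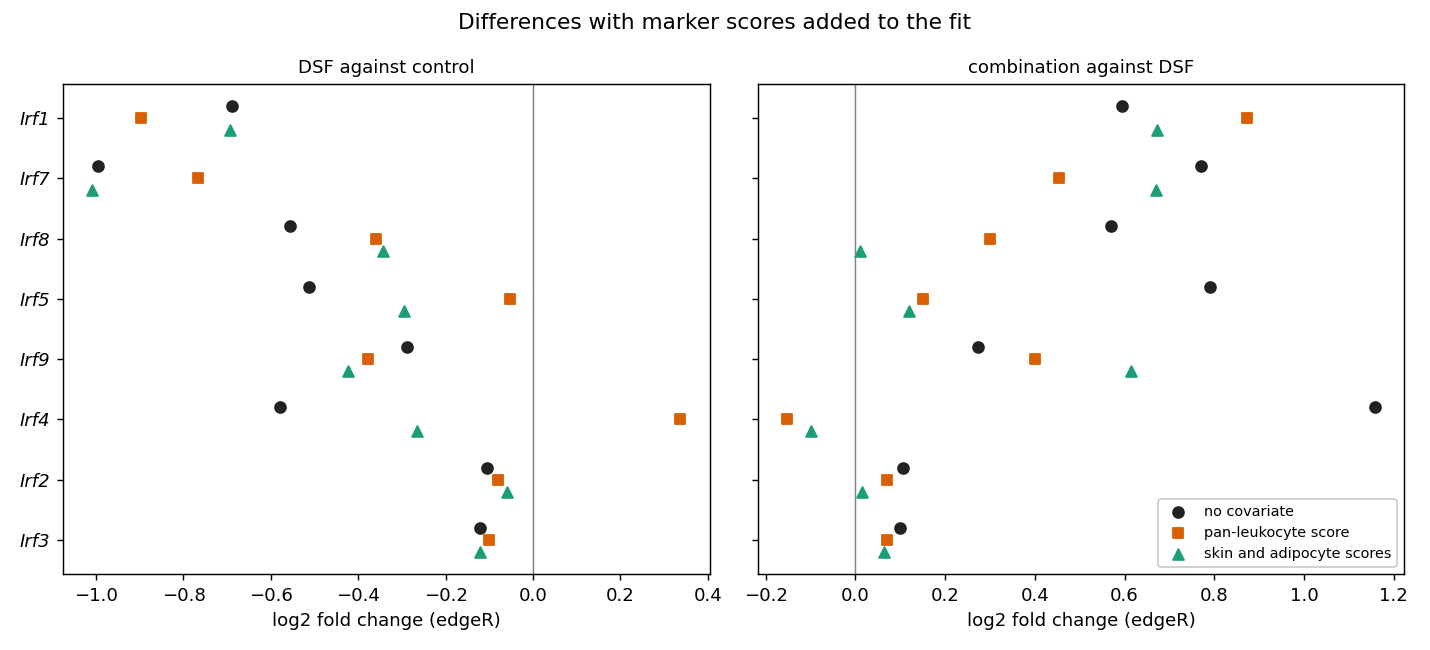
Log2 fold change of each factor in DSF against control (left) and in the combination against DSF (right), from the edgeR fit without covariate, with the pan-leukocyte score and with the skin and adipocyte scores. The markers for Irf4 cross 0 with the leukocyte score in both panels, and with the skin and adipocyte scores in the right panel. Those for every other factor stay on 1 side of 0 within each panel.

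The factors most alike over the 12 libraries were Irf4 and Irf5, with a Pearson r of log2 CPM of 0.91, and 0.85 after each group's mean was subtracted. Irf7 and Irf9 had an r of 0.82, and 0.45 within groups. Irf1 and Irf7 had an r of 0.72, and 0.01 within groups, so their likeness over all libraries came from the group means. These values describe 12 libraries that share groups and scaling, and were not tested.

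Among all genes tested, those most like Irf7 were interferon-induced genes. Trim30a had the highest r (0.981, Spearman's rho 0.972), followed by Sp100 (0.953), Phf11b (0.940), Dhx58 (0.937), Oasl2 (0.937) and Ifi44 (0.929). After each group's mean was subtracted, r was 0.920 for Trim30a, 0.797 for Sp100, 0.791 for Phf11b, 0.758 for Dhx58, 0.675 for Oasl2 and 0.548 for Ifi44, so the group means contribute to the likeness, most for Oasl2 and Ifi44. Trim30a and Phf11b have close paralogs among which reads may be divided, so their values are uncertain. For Irf1 the most alike were Gbp9, Psme2 and Psmb8 (r 0.979, 0.977 and 0.976), a guanylate-binding protein and subunits of the proteasome system for antigen presentation. For Irf8 they included Samhd1 and Rab43 (0.970 and 0.958), for Irf5 Prex1, Selplg and Myo1f (0.968, 0.965 and 0.963), and for Irf4 Dock2, Akna and Myb (0.972, 0.961 and 0.941). Selplg, Myo1f and Dock2 are expressed mainly in blood cells. For Irf9 they were Oasl2, Parp11 and Dtx3l (0.922, 0.916 and 0.911), for Irf2 Trmt61a, Nat10 and Nol10 (0.864, 0.847 and 0.840) and for Irf3 Shf, Cdipt and Knop1 (0.906, 0.904 and 0.893), where Spearman's rho for Shf was 0.524.

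Genes listed as known targets of ISGF3, IRF3 and IRF7 held every gene that edgeR called between DSF and anti-PD-1 tumours. This list, like the others here, was chosen with earlier results of these data known, so the overlap is not a test. In DSF against anti-PD-1, 10 of the 28 listed targets tested fell by edgeR's test and none rose, and these 10 were also the only genes called among 14144 (0.0707%): Cmpk2, Parp14, Ifi44, Ifit2, Ifih1, Ifit3, Ifit1, Usp18, Rtp4 and Eif2ak2. Cmpk2, an interferon-induced kinase of nucleotides in mitochondria, was at 19.2 ± 2.62 CPM in DSF and 65.2 ± 16.9 in anti-PD-1 tumours (SD, n = 3 each), a log2 fold change of -1.76 ± 0.19 (edgeR, adjusted p = 0.00938). Ifit3, an antiviral RNA-binding protein, was at 9.01 ± 1.44 against 32.7 ± 10.1 CPM (-1.86 ± 0.23, adjusted p = 0.0113). Usp18, which damps type I interferon signalling, was at 12.6 ± 2.31 against 36.2 ± 10.3 CPM (-1.53 ± 0.22, adjusted p = 0.0374). The median of the 28 was -1.02, against 0.02 over all genes. The count was 0 without DSF replicate 3, 5 without anti-PD-1 replicate 2, 6 without control replicate 1, anti-PD-1 replicate 1 or combination replicate 1, and 0 with either set of marker scores in the fit or without both DSF replicate 2 and combination replicate 2. Ifit3 has a close paralog with which reads may be shared, so its value is uncertain.

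In DSF against control, edgeR called 0 of the 28 type I targets, 24 had an unadjusted p under 0.05 (10.6% of all genes) and all 28 were negative (44.4% of all genes), with a median of -0.68. The 4 with the smallest p were Parp14 (-0.72 ± 0.10), Ifi44 (-1.18 ± 0.19), Ifit2 (-0.85 ± 0.17) and Eif2ak2 (-0.53 ± 0.11), each with an adjusted p of 0.187 by edgeR. In anti-PD-1 against control 0 were called and 12 had an unadjusted p under 0.05 (1.73% of all genes). There 27 of 28 were positive, with a median of 0.36 against 0.002 over all genes. Between the combination and DSF, 3 of 28 rose (1.6% of all genes rose there): Parp14 (0.53 ± 0.10), Ifit2 (0.90 ± 0.17) and Ifi44 (0.95 ± 0.19), each with an adjusted p of 0.0409 by edgeR. All 28 were positive there (53.8% of all genes were negative), with a median of 0.48. That count was 0 without control replicate 1 or 2, DSF replicate 3, anti-PD-1 replicate 3, or combination replicate 2 or 3, 1 without control replicate 3 or DSF replicate 1, 5 without anti-PD-1 replicate 1 or 2 and 6 without DSF replicate 2.

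Of 24 listed targets of IRF1 in the interferon gamma response, edgeR called 3, all between the combination and DSF. In DSF against control edgeR called 0 of 24, 21 had an unadjusted p under 0.05 (10.6% of all genes) and 22 were negative (44.4% of all genes), with a median of -0.99. In DSF against anti-PD-1 it called 0 (0.0707% of all genes), 20 had an unadjusted p under 0.05 (7.94% of all genes) and all 24 were negative (44.9% of all genes), with a median of -0.84. In anti-PD-1 against control 0 were called, 0 had an unadjusted p under 0.05 (1.73% of all genes) and the median was -0.08. Between the combination and DSF, 3 of 24 rose by edgeR (1.6% of all genes rose there). Ciita, the activator that MHC class II genes depend on, was at 71.6 ± 1.59 against 20.9 ± 7.22 CPM (1.78 ± 0.26, adjusted p = 0.0387). Socs1, an inhibitor of JAK kinases, was at 41.8 ± 5.09 against 20.7 ± 0.0129 CPM (1.02 ± 0.20, adjusted p = 0.0409), and Irgm2, an immunity-related GTPase, at 180 ± 18.2 against 93.2 ± 25.6 CPM (0.95 ± 0.20, adjusted p = 0.0433). The count was 0 without control replicate 1 or 2, DSF replicate 3, anti-PD-1 replicate 3, or combination replicate 2 or 3, 1 without DSF replicate 1 and 5 without anti-PD-1 replicate 1.

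Cd274, which encodes PD-L1 and is an IRF1 target, was at 81.1, 45.0 and 72.7 CPM in DSF, 99.7, 120 and 70.9 in control, 119, 107 and 85.7 in anti-PD-1 and 100, 89.0 and 95.2 in combination tumours. The DSF values overlapped the control values and lay below all anti-PD-1 and combination values. The log2 fold change of DSF against control was -0.55 ± 0.23 (edgeR, adjusted p = 0.444), and of the combination against DSF 0.52 ± 0.23 (adjusted p = 0.249). Like Irf1, it was lowest in DSF replicate 2, without which these values were -0.32 and 0.29.

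No gene passed edgeR's test in DSF against control, and so none upstream of the factors did. Of 12 listed interferon genes 5 are in the deposited table and 1, Ifng, passed the filter. Ifng, which encodes interferon gamma, was at 1.11 ± 0.622 CPM in DSF, 4.17 ± 1.95 in control, 2.55 ± 1.26 in anti-PD-1 and 4.16 ± 0.87 in combination tumours (DSF against control -1.90 ± 0.53, edgeR adjusted p = 0.272). Of 9 receptors, kinases and STATs edgeR called 0 in DSF against control and 2 had an unadjusted p under 0.05 (10.6% of all genes). The median of the 9 was 0.15, against 0.03 over all genes.

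Of 19 sensors, adaptors and kinases that act before IRF3, IRF5 and IRF7, edgeR called 0 in DSF against control. Of these 19, 6 had an unadjusted p under 0.05 (10.6% of all genes), and the median of the 19 was -0.14. The smallest p values belonged to Ifih1 (-0.51 ± 0.12), a cytoplasmic RNA sensor, Tlr9 (-1.52 ± 0.50), a DNA sensor of endosomes, Tlr4 (0.36 ± 0.12), the receptor for lipopolysaccharide, and Cgas (-0.31 ± 0.11), a DNA sensor. Ifih1 was the 1 of these 19 that fell in DSF against anti-PD-1 (-1.02 ± 0.12, edgeR adjusted p = 0.00954), and it is counted among the type I targets too. Of 12 inhibitors and partners edgeR called 0 in DSF against control and 5 had an unadjusted p under 0.05 (10.6% of all genes). The smallest belonged to Usp18 (-0.94 ± 0.22), Trim21 (-0.60 ± 0.15), Spib (-1.56 ± 0.43) and Socs1 (-0.62 ± 0.20). Usp18 is also counted among the type I targets, Socs1 among the IRF1 targets and Spib among the plasmacytoid markers.

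Of 6 DNA methylation enzymes tested edgeR called 0 in DSF against control, and 1 had an unadjusted p under 0.05 (10.6% of all genes). That gene was Tet2, which oxidises methylcytosine (47.3 ± 3.3 CPM in DSF and 35.9 ± 1.48 in control, 0.40 ± 0.11, edgeR adjusted p = 0.271). Dnmt1, the maintenance methyltransferase, was at 281 ± 46.7 CPM in DSF, 316 ± 41.8 in control, 319 ± 3.67 in anti-PD-1 and 312 ± 23.6 in combination tumours.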

How the data were processed

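Sequencing of total RNA from the 12 tumours used a BGISEQ-500 instrument, per the labels' protocols. The submitters' processing notes name DESeq2 1.4.5, RSEM 1.2.12, Bowtie2 2.2.5 and HISAT2 2.0.4, with no role for any, and the genome build and strandedness are not given in the sources used here. The deposited gene and transcript tables hold expected counts estimated by the authors, of which 9.02% in the gene table are not whole, and FPKM values, per the file headers. Table columns were matched to the libraries by the deposited group plan, where the p columns belong to anti-PD-1, and by number, and a control column ending in 11 was read as control 1. A further 36 columns of the same libraries (TPM, and transcript FPKM) were not used, and the authors' correlation and principal component tables were not analysed here.

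Expected counts were rounded and filtered with filterByExpr, which kept 14144 of 18433 genes. TMM scaling was followed by the quasi-likelihood test of edgeR 4.0.16 (R 4.3.3), using all 12 libraries and 1 mean for each group. All tests are two-sided, with p-values adjusted by Benjamini-Hochberg over all genes tested, and an adjusted p under 0.05 was called. A main effect averages both arms with a treatment and subtracts the average of both arms without it, and the interaction subtracts the DSF effect without anti-PD-1 from the DSF effect with it. Likeness used log2 CPM with a prior count of 2. DESeq2 1.42.0, limma 3.58.1 on log2(FPKM + 1), other scaling and filtering, marker scores as covariates, a replicate block and left-out libraries were tried as alternatives. A marker score is the mean over the markers of log2 CPM. The labels do not say which mouse each library came from, so p-values measure the spread between these samples. No libraries held identical values.

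The genes, lists and alternatives were chosen with earlier results of these data known. Genes named are the 8 factors, Cd274 and Dnmt1, the 6 genes most like Irf7 and 3 most like each other factor by Pearson r, and from each list the genes called or, where none was, the 4 with the smallest p. Examples among called genes, and genes whose marker levels check a label, were chosen after their values were seen. Some genes that this rule names are not reported here.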

Additional observations from a re-analysis of the deposited data

How the results depend on the processing

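No factor passed the threshold in any of the 10 edgeR tests, and changing the scaling to DESeq2 size factors, dropping the filter, fitting only the groups compared, adding either set of marker scores, or leaving out DSF replicate 2 and combination replicate 2 together left that count at 0. DESeq2 called 3 factors for any difference among the groups (6.15% of all genes) and 3 in DSF against control (1.51%). It called 4 in the combination against DSF (8.27%) and 2 in DSF against anti-PD-1 (1.03%). The DSF and anti-PD-1 main effects had 1 each (0.467% and 2.27% of all genes). limma on log2(FPKM + 1) called 3 in the combination against DSF (3.05% of all genes) and 1 in DSF against anti-PD-1 (0.134%). Leaving out 1 library at a time gave 0 to 1 in the combination against DSF (Irf5, without anti-PD-1 replicate 1). It gave 0 to 1 in DSF against anti-PD-1 (Irf7, without control replicate 2), and 0 elsewhere. The fits that called Irf5 and Irf7 called 3.24% and 0.0626% of all genes there. The cause was not tested.

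With the replicate number as a block, 1 factor was called in DSF against anti-PD-1 (0.0848% of all genes). This was Irf7, at an edgeR adjusted p of 0.0198, while 0 were called elsewhere. Between same-numbered libraries, correlations of deviations from group means ran from -0.365 to 0.387 for number 1 and -0.234 to 0.462 for number 2. For number 3 they were all positive, at 0.0122 to 0.298. Libraries of different number were not compared, so this check cannot decide whether the numbers give a pairing. Under that block the type I targets called were 11 in DSF against anti-PD-1 and 0 in the combination against DSF. The IRF1 targets called in the combination against DSF were 1 (0.0495% of all genes were called there).

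The alternatives for target counts were chosen after seeing the data. Type I targets called in DSF against anti-PD-1 (10) were 24 by DESeq2 (1.03% of all genes were called) and 14 by limma (0.134%). They were 0 with only the groups compared, with either set of marker scores and without DSF replicate 2 and combination replicate 2. Leaving out 1 library gave 0 to 14. In the combination against DSF (3) they were 14 by DESeq2 (8.27% of all genes were called) and 10 by limma (3.05%). Those same 4 settings gave 0, and leaving out 1 library gave 0 to 6. IRF1 targets called in the combination against DSF (3) were 17 by DESeq2 and 8 by limma, beside the same shares of all genes. Those 4 settings gave 0 again, and leaving out 1 library gave 0 to 5.

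Of 566 log2 fold changes under alternatives other than leaving out 1 library, 37 had the opposite sign, none of them called. For the combination against control, Irf2 was at -0.0105 by DESeq2, -0.0116 with DESeq2 size factors, -0.00509 without the filter, -0.00467 with only the groups compared, -0.0021 with the block, -0.00911 with the leukocyte score and -0.0455 with the skin and adipocyte scores. By limma Irf3 was at 0.00548, Irf9 at 0.0128 and Cd274 at 0.0148, and without DSF replicate 2 and combination replicate 2 Irf8 was at -0.00999, Irf9 at 0.030 and Cd274 at 0.0149. With the leukocyte score Irf8 was at -0.0604, Irf9 at 0.0225 and Cd274 at 0.00895, and with the skin and adipocyte scores Irf4 was at -0.366, Irf5 at -0.176, Irf8 at -0.334, Irf9 at 0.191 and Cd274 at 0.0185. For DSF against anti-PD-1, Irf3 was at 0.00784 by DESeq2, 0.00783 with its size factors, 0.0136 with the leukocyte score and 0.00111 with the skin and adipocyte scores. The leukocyte score put Irf4 at 0.337 in DSF against control, -0.153 in the combination against DSF, -0.208 in the combination against anti-PD-1 and -0.546 for the interaction, Irf5 at 0.0745 in anti-PD-1 against control, and Irf2 at -0.0273 for the interaction. The skin and adipocyte scores put Irf4 at -0.10 in the combination against DSF and, in the combination against anti-PD-1, Irf4 at -0.373, Irf5 at -0.0751 and Irf8 at -0.17, and for the interaction Irf2 at -0.0735 and Irf4 at -0.106.

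Leaving out 1 library gave 45 of 768 values the opposite sign, none called. For DSF against control the ranges were -0.22 to 0.089 for Irf3. For anti-PD-1 against control the ranges were -0.0079 to 0.17 for Irf1, -0.23 to 0.081 for Irf3, -0.23 to 0.40 for Irf4, -0.26 to 0.059 for Irf5, -0.079 to 0.29 for Cd274. For the combination against control the ranges were -0.027 to 0.056 for Irf2, -0.14 to 0.17 for Irf3, -0.35 to 0.033 for Irf7, -0.055 to 0.11 for Irf8, -0.14 to 0.086 for Irf9, -0.22 to 0.16 for Cd274. For DSF against anti-PD-1 the ranges were -0.0056 to 0.015 for Irf3. For the interaction the ranges were -0.043 to 0.071 for Irf2, -0.050 to 0.18 for Irf9. Groups of 3 limit what the tests can resolve, and Irf4 is further limited by its low counts.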
